A study of Homo sapiens with 8 samples.

Results

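The genes described here are 38 genes of amino acid supply and tRNA charging in LS174T cells, a long established line from a human colon adenocarcinoma. They were chosen by name: 27 are the transcription factor ATF4, its partners, its known target genes and genes of amino acid supply, and 11 encode cytosolic aminoacyl tRNA synthetases. All 38 were found among the 57736 gene identifiers of every library, each with 1 identifier. All 38 passed the filter on low values, VLDLR only through libraries of the ASCL2 line. RNA was sequenced on the Ion Proton in 8 libraries, 2 for each of 4 groups: doxycycline-treated and untreated cells of a line with an inducible hairpin against ASCL2, which encodes a bHLH transcription factor active in stem cells of the gut, and doxycycline-treated and untreated cells of a line with an inducible hairpin that targets WiNTRLINC1, a long non-coding RNA. The study asked which genes change when either transcript is lost. Cells of every group carried the Tet repressor and a hairpin cassette, and grew for 3 days in DMEM with serum. Treated cells had doxycycline at 1 ug/ml throughout, and untreated cells had none. The WiNTRLINC1 line came from clones screened by RT-PCR, so differences between the lines are also differences between clones. Doxycycline was never given to cells without a hairpin, so effects of the drug and of the hairpin cannot be told apart. The genotype label names the other target than the title does for each library, and the groups follow the titles. The labels do not say that the 2 libraries of a group came from separate cultures, so p-values cover no more than the spread among these libraries, which may be technical.

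ATF4 is the transcription factor at the end of the integrated stress response. Kinases that sense amino acid shortage, misfolded protein, viral RNA or lack of haem phosphorylate the initiation factor eIF2, which slows protein synthesis while translation of the ATF4 message increases. ATF4 then induces genes that import and make amino acids, genes that charge tRNAs, and genes that end the response or lead to cell death. Much of the control of ATF4 acts on its translation, so the level of its messenger RNA alone does not report its activity. Cytosolic tRNA synthetases join each amino acid to its tRNA for protein synthesis, and several of their genes are induced by ATF4.

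The deposited values were read counts that the authors had scaled, and they summed to between 21524463 and 22941231 per library. ASCL2 (ENSG00000183734, chromosome 11), the target of a hairpin, had 532 and 586 in doxycycline-treated and 2855 and 3373 in untreated cells of the ASCL2 line. It had 805 and 697 in doxycycline-treated and 2540 and 2034 in untreated cells of the WiNTRLINC1 line. ASCL2 fell with doxycycline in either line, so its level leaves unsettled the conflict between titles and genotype labels. The 8 markers of colon epithelium reached 115955 (KRT8), and EPCAM was between 4835 and 9218 in all 8 libraries. Of 13 markers of fibroblasts, immune cells and endothelium, 12 stayed at 46 or less and COL1A1 reached 222. By limma at a Benjamini-Hochberg adjusted p under 0.05, 5 of 8 epithelial markers fell and 0 rose with doxycycline in the ASCL2 line, beside 12.7% of all 22100 genes lower. Of the same 8 markers 2 fell and 1 rose in the WiNTRLINC1 line, beside 9.03% of all genes lower and 9.54% higher. Epithelial markers summed to between 128991 and 141580 with doxycycline and between 134243 and 146106 without it in the ASCL2 line, and to between 91083 and 91860 with and between 92319 and 95890 without it in the WiNTRLINC1 line. The 5 fibroblast markers, of which DCN and LUM were at 0 in some libraries of the ASCL2 line, summed to 113 and 127 with doxycycline and 245 and 257 without it in that line, and to 28 and 52 with and 57 and 58 without it in the WiNTRLINC1 line. COL1A1 alone had 60 and 99 with doxycycline and 200 and 222 without it in the ASCL2 line, where the other 4 summed to 53 and 28 with and 45 and 35 without it. The part of these markers in the results below was not tested. In bulk RNA, fewer cells of a type and less RNA per cell cannot be told apart.

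The 2 libraries of each ASCL2 line group stood apart in these genes. In the doxycycline-treated group, 24 of the 27 ATF4 target and supply genes were higher in the second library than in the first, with a median difference of 0.39 on the log2(value + 1) scale. In the untreated group 20 of 27 were higher in the second library, with a median of 0.34. Over all 22100 genes tested, the shares higher in the second library were 51.9% in the treated and 46.0% in the untreated group of this line, with medians of 0.01 and -0.0099. In the WiNTRLINC1 line the numbers were 16 of 27 in the doxycycline-treated and 13 of 27 in the untreated group. In both groups of the ASCL2 line the 3 largest differences between libraries were in CHAC1, DDIT4 and STC2. CHAC1, which degrades glutathione, had 327 and 1201 in doxycycline-treated and 291 and 846 in untreated cells of the ASCL2 line. DDIT4, an inhibitor of mTORC1, had 1085 and 2299 in doxycycline-treated and 1457 and 3011 in untreated cells. STC2, a secreted glycoprotein, had 1308 and 2442 in doxycycline-treated and 1306 and 2538 in untreated cells. In each of these 3 genes, singled out after their values were seen, the libraries of a group differed more than the groups did.

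**Figure D1:**
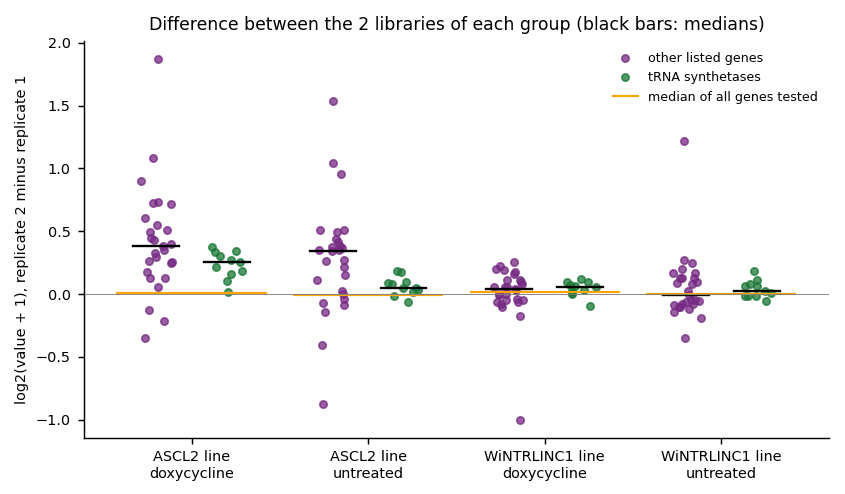
Difference between the second and the first library of each group, in log2(value + 1), for the 27 ATF4 target and supply genes (purple) and the 11 tRNA synthetases (green). Black bars are medians and orange lines the median of all 22100 genes tested. The 2 ASCL2 line groups have purple medians of 0.39 with doxycycline and 0.34 without, while those of the WiNTRLINC1 line lie near 0.

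Because the listed genes are grouped by one transcription factor, their promoters were searched for the composite site that ATF4 binds with C/EBP proteins (TGATGNAA) and for the palindromic CRE (TGACGTCA), in the 250 bases before the start and on both strands. The motifs do not overlap in the promoters found. RefSeq promoters (GRCh38.p14) were in the table for 30 of the 38 genes. TGATGNAA was present in 2 of 21 ATF4 target and supply genes (9.52%) and 1 of 9 synthetases (11.1%), against 3.14% of 35116 promoters. TGACGTCA was present in 0 of 21 and 0 of 9, against 1.65% of all promoters. The 3 matches are printed with 20 bases on each side, in the direction of the gene, with the motif in capitals. Those of AARS1 (chr16:70289666-70289713, minus strand, 180 to 187 bases before the start) and CHAC1 (chr15:40953242-40953289, plus strand, 202 to 209 bases before the start) read the motif on the opposite strand. That of ASNS (chr7:97872449-97872496, minus strand, 61 to 68 bases before the start) reads it forward. A match is a description of letters, not a binding site.
AARS1: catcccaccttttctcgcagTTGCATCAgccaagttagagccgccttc
ASNS: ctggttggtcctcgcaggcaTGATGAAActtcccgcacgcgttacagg
CHAC1: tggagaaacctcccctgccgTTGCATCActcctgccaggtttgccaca

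Among the 27 ATF4 target and supply genes, 5 were higher and 4 lower with doxycycline in the ASCL2 line, while 3 were higher and 4 lower in the WiNTRLINC1 line. A gene was called at an adjusted p under 0.05 from limma with Benjamini-Hochberg adjustment over all 22100 genes. By the same rule 26.6% of all genes were called in the ASCL2 line, 13.9% higher and 12.7% lower, and 18.6% in the WiNTRLINC1 line, 9.54% higher and 9.03% lower. The 9 of 27 called in the ASCL2 line and 7 of 27 in the WiNTRLINC1 line thus stand beside a high background. Treated and untreated libraries did not overlap for 11 of 27 genes in the ASCL2 line, against 60.6% of all genes, and for 16 of 27 in the other line, against 54.8%. The median log2 fold change of the 27 genes was 0.02 in the ASCL2 line, beside 0.0063 for all genes, and -0.0024 in the WiNTRLINC1 line, beside 0.0072. The list did not move as 1 block: SLC7A11 and CEBPG rose in both lines, NUPR1, SLC7A5 and PSPH fell in both, and MTHFD2 was higher in the ASCL2 line but lower in the WiNTRLINC1 line. These 5 of 27 genes called in the same direction in both lines stand beside 7.14% of all genes, and 1 of 27 called in opposite directions beside 1.94%. By this test, the changes called in 1 line alone were in TRIB3, CTH and PHGDH for the ASCL2 line and in PSAT1 for the WiNTRLINC1 line, and 17 of 27 were called in neither. Without any 1 of the 4 libraries of the WiNTRLINC1 line, 3 or 4 of the 27 genes were called there.

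**Figure D2:**
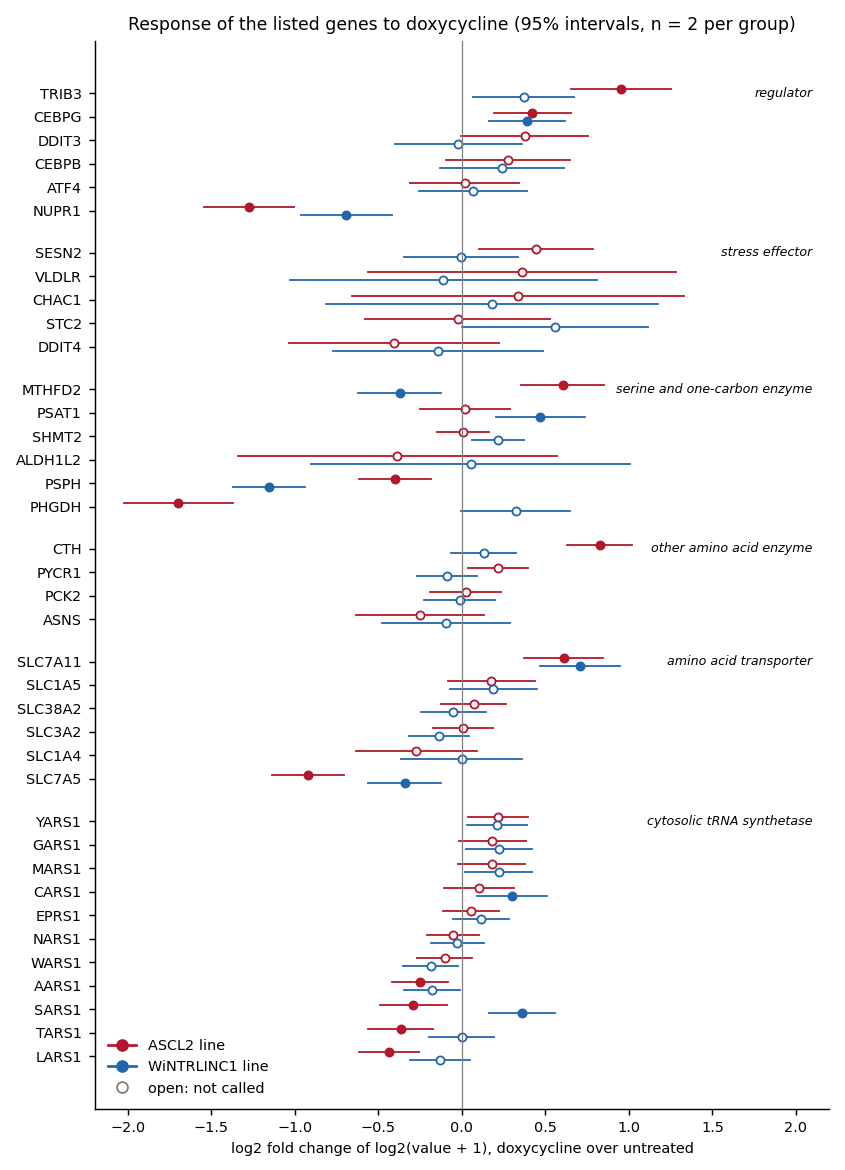
Log2 fold change of each listed gene with doxycycline over untreated, on the log2(value + 1) scale, in the ASCL2 line (red) and the WiNTRLINC1 line (blue), grouped by role. Points are estimates from 2 libraries per group, lines are 95% intervals and filled points passed the test. PHGDH lies at -1.70 in the ASCL2 line and at 0.32 in the WiNTRLINC1 line, while ATF4 lies near 0 in both.

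Of the regulators, ATF4 itself (ENSG00000128272, chromosome 22) was not called. It had 8851 and 12972 in doxycycline-treated and 9302 and 12085 in untreated cells of the ASCL2 line, with a log2 fold change of 0.02 (95% interval -0.31 to 0.34). ATF4 had 16979 and 19225 in doxycycline-treated and 15852 and 18847 in untreated cells of the WiNTRLINC1 line, a log2 fold change of 0.06 (95% interval -0.26 to 0.39). Treated and untreated libraries overlapped in both lines, and the intervals leave room for changes of either sign. DDIT3, which encodes the pro-apoptotic factor CHOP, had 593 and 976 in doxycycline-treated and 519 and 663 in untreated cells of the ASCL2 line. Its log2 fold change there was 0.37 ± 0.178 (SE, n = 2 each; limma with Benjamini-Hochberg adjusted p = 0.142). Without the first doxycycline library it was 0.73, but the second library exceeded the first by 0.72 with doxycycline and 0.35 without. DDIT3 had 505 and 490 in doxycycline-treated and 531 and 480 in untreated cells of the WiNTRLINC1 line, a log2 fold change of -0.02 (95% interval -0.40 to 0.36).

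TRIB3, a pseudokinase that is induced by ATF4 and restrains it, rose in the ASCL2 line. It had 6065 and 8551 in doxycycline-treated and 3197 and 4331 in untreated cells, which did not overlap, and the rise was 1.94-fold (log2 0.95 ± 0.140 SE, n = 2 each; limma with Benjamini-Hochberg adjusted p = 0.000156). TRIB3 had 3527 and 3620 in doxycycline-treated and 2811 and 2725 in untreated cells of the WiNTRLINC1 line, a log2 fold change of 0.37 that did not pass the test. It passed there without either ASCL2 doxycycline library, with each line fitted alone and with either replicate block (limma, Benjamini-Hochberg adjusted p between 0.00229 and 0.0423). The difference of the responses, WiNTRLINC1 line minus ASCL2 line, was -0.58 for TRIB3 (95% interval -1.01 to -0.16; limma with Benjamini-Hochberg adjusted p = 0.0626). That difference passed with either replicate block. It was -0.83 without the first doxycycline and -0.80 without the second untreated ASCL2 library. Leaving out the other library of either ASCL2 group made it smaller instead. The second ASCL2 library of TRIB3 exceeded the first by 0.50 with doxycycline and 0.44 without. Fits without 1 of these libraries mix that excess with the response. CEBPG, a C/EBP protein that pairs with ATF4 on DNA, rose in both lines. It had 2055 and 2437 in doxycycline-treated and 1550 and 1799 in untreated cells of the ASCL2 line (log2 0.42 ± 0.108 SE, limma with Benjamini-Hochberg adjusted p = 0.00911). CEBPG had 2243 and 2368 in doxycycline-treated and 1602 and 1932 in untreated cells of the WiNTRLINC1 line (log2 0.39 ± 0.108 SE, adjusted p = 0.0197). Both rises cleared the untreated libraries, and the responses differed by -0.03 (95% interval -0.36 to 0.29). CEBPG was no longer called in the ASCL2 line without the second doxycycline or the first untreated library (limma, Benjamini-Hochberg adjusted p = 0.136 and 0.104). In the WiNTRLINC1 line it was lost without either doxycycline library or the first untreated one (adjusted p between 0.066 and 0.21).

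NUPR1, a small stress-induced chromatin protein, fell in both lines. It had 2907 and 3929 in doxycycline-treated and 8602 and 7781 in untreated cells of the ASCL2 line, a 2.42-fold fall (log2 -1.28 ± 0.127 SE, n = 2 each; limma with Benjamini-Hochberg adjusted p = 4.26e-06). NUPR1 had 2128 and 2016 in doxycycline-treated and 3781 and 2967 in untreated cells of the WiNTRLINC1 line, a 1.62-fold fall (log2 -0.69 ± 0.127 SE, adjusted p = 0.00135). No treated library of NUPR1 reached an untreated one of its line. CEBPB, another C/EBP partner of ATF4, was called in neither line. Its values were 979 and 1490 in doxycycline-treated and 842 and 1184 in untreated cells of the ASCL2 line, and 384 and 415 in doxycycline-treated and 323 and 353 in untreated cells of the WiNTRLINC1 line. Without the first doxycycline library the log2 fold change of CEBPB in the ASCL2 line was 0.58. Its second library there exceeded the first by 0.61 with doxycycline and 0.49 without.

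The 5 stress effectors, DDIT4, CHAC1, STC2, SESN2 and VLDLR, included 0 called genes in either line, and 1 of 5 had an unadjusted limma p under 0.05 in each. SESN2, a leucine sensor that inhibits mTORC1, came nearest in the ASCL2 line. It had 1146 and 1637 in doxycycline-treated and 843 and 1200 in untreated cells, a log2 fold change of 0.45 ± 0.159 SE (limma, Benjamini-Hochberg adjusted p = 0.0522), and the groups overlapped. SESN2 was at 0.70 without the first doxycycline or the second untreated library. CHAC1 had a log2 fold change of 0.34 with a 95% interval from -0.66 to 1.33 in this line, and DDIT4 one of -0.41 with an interval from -1.03 to 0.22. Without the first doxycycline library CHAC1 was at 1.27, and without the second DDIT4 was at -0.95. DDIT4 was at -0.93 without the first untreated library. For these genes the second ASCL2 line library exceeded the first in both groups. The excess was 1.87 with doxycycline and 1.54 without for CHAC1, 1.08 and 1.05 for DDIT4, and 0.51 and 0.51 for SESN2. Fits without 1 library mix that excess with the response. SESN2 had 601 and 576 in doxycycline-treated and 592 and 590 in untreated cells of the WiNTRLINC1 line, and CHAC1 had 297 and 263 in doxycycline-treated and 253 and 240 in untreated cells. STC2 had 2787 and 3204 in doxycycline-treated and 1896 and 2174 in untreated cells of that line, without overlap, but did not pass the test. It passed there with each line fitted alone and with either replicate block (limma, Benjamini-Hochberg adjusted p between 0.000185 and 0.0219).

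**Figure D3:**
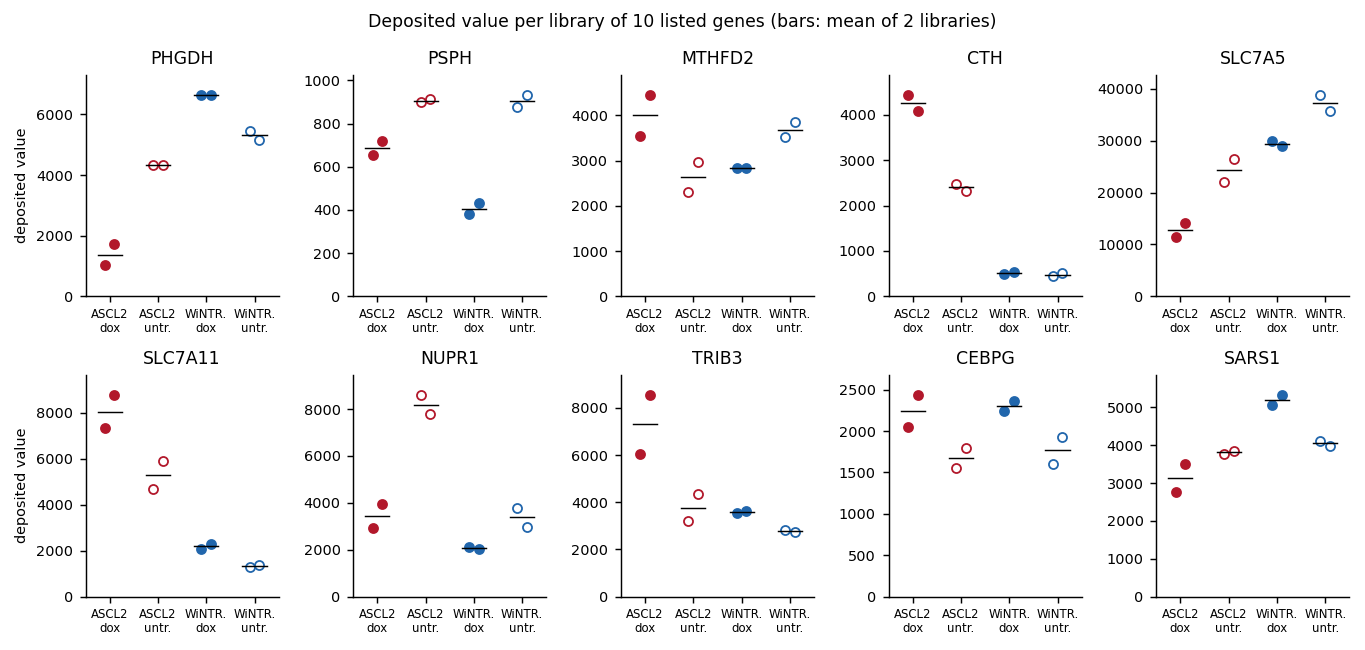
Deposited value per library of 10 listed genes in doxycycline-treated (filled) and untreated (open) cells of the ASCL2 line (red) and the WiNTRLINC1 line (blue), each axis starting at 0. Bars are means of 2 libraries. PHGDH is at 1033 and 1715 in doxycycline-treated against 4325 and 4320 in untreated ASCL2 line cells, and PSPH is lower with doxycycline in both lines.

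In each line the listed gene with the largest response was an enzyme of serine synthesis, PHGDH for the ASCL2 line and PSPH for the WiNTRLINC1 line. PHGDH (ENSG00000092621), which catalyses the first step from the glycolytic intermediate 3-phosphoglycerate, fell in the ASCL2 line. It had 1033 and 1715 in doxycycline-treated and 4325 and 4320 in untreated cells, a 3.25-fold fall (log2 -1.70 ± 0.152 SE, n = 2 each; limma with Benjamini-Hochberg adjusted p = 1.55e-06). PHGDH had 6651 and 6633 in doxycycline-treated and 5466 and 5168 in untreated cells of the WiNTRLINC1 line, a log2 fold change of 0.32 that did not pass the test (adjusted p = 0.172). It passed without either ASCL2 doxycycline library and with each line fitted alone (limma, Benjamini-Hochberg adjusted p between 0.00766 and 0.0151). Doxycycline-treated cells were thus below untreated cells in one line and above them in the other, and the difference of the responses was 2.02 ± 0.215 SE (limma, Benjamini-Hochberg adjusted p = 1.74e-05). PSAT1, the transaminase of the second step, had 3401 and 4633 in doxycycline-treated and 3472 and 4421 in untreated cells of the ASCL2 line, a log2 fold change of 0.02 (95% interval -0.25 to 0.29). It rose in the WiNTRLINC1 line, with 7861 and 8193 in doxycycline-treated and 5976 and 5620 in untreated cells (log2 0.47 ± 0.126 SE, limma with Benjamini-Hochberg adjusted p = 0.0165). That call was lost without any 1 of the 4 libraries of the line (adjusted p between 0.0608 and 0.117).

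PSPH (ENSG00000146733), the phosphatase of the last step, fell in both lines. It had 379 and 433 in doxycycline-treated and 877 and 934 in untreated cells of the WiNTRLINC1 line, a 2.23-fold fall (log2 -1.16 ± 0.101 SE, n = 2 each; limma with Benjamini-Hochberg adjusted p = 1.65e-06). In the ASCL2 line it had 656 and 718 in doxycycline-treated and 899 and 914 in untreated cells, a 1.32-fold fall (log2 -0.40 ± 0.101 SE, adjusted p = 0.00831). The fall was deeper in the WiNTRLINC1 line by 0.76 on the log2 scale, given as a difference of -0.76 ± 0.142 SE (limma, Benjamini-Hochberg adjusted p = 0.00196). Without the first doxycycline library of the ASCL2 line the fall of PSPH there was no longer called (adjusted p = 0.0857). Untreated cells had about the same PSPH level in both lines, so the treated WiNTRLINC1 cells held the lowest values of the 4 groups.

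Downstream of serine, MTHFD2, a mitochondrial enzyme of the folate pathway, moved in opposite directions. It had 3552 and 4456 in doxycycline-treated and 2305 and 2977 in untreated cells of the ASCL2 line (log2 0.60 ± 0.117 SE, n = 2 each; limma with Benjamini-Hochberg adjusted p = 0.00139). MTHFD2 had 2835 and 2842 in doxycycline-treated and 3512 and 3843 in untreated cells of the WiNTRLINC1 line (log2 -0.37 ± 0.117 SE, adjusted p = 0.0375). The difference of -0.97 ± 0.165 SE passed the test (limma, Benjamini-Hochberg adjusted p = 0.000864). The fall in the WiNTRLINC1 line was lost without any 1 of its 4 libraries (adjusted p between 0.0781 and 0.214). SHMT2, which passes a carbon from serine to folate in mitochondria, had 8510 and 9278 in doxycycline-treated and 9064 and 8618 in untreated cells of the ASCL2 line. SHMT2 had 12694 and 12962 in doxycycline-treated and 11447 and 10648 in untreated cells of the WiNTRLINC1 line, a log2 fold change of 0.22 just outside the threshold (limma, Benjamini-Hochberg adjusted p = 0.0521). ALDH1L2, a mitochondrial folate dehydrogenase, was between 10 and 21 in all 8 libraries and too low for a statement.

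Of the other 4 amino acid enzymes, CTH (ENSG00000116761), which makes cysteine from cystathionine, was called. It had 4444 and 4074 in doxycycline-treated and 2478 and 2328 in untreated cells of the ASCL2 line, a 1.77-fold rise (log2 0.82 ± 0.0909 SE, n = 2 each; limma with Benjamini-Hochberg adjusted p = 1.1e-05). CTH had 500 and 540 in doxycycline-treated and 447 and 503 in untreated cells of the WiNTRLINC1 line, a log2 fold change of 0.13 that did not pass. The responses differed by -0.69 ± 0.129 SE (limma, Benjamini-Hochberg adjusted p = 0.00179). ASNS, the asparagine synthetase often read as a measure of ATF4 activity, had 1009 and 1669 in doxycycline-treated and 1295 and 1842 in untreated cells of the ASCL2 line. ASNS had 2508 and 2602 in doxycycline-treated and 2710 and 2753 in untreated cells of the WiNTRLINC1 line. It passed in neither line. Without the second doxycycline library of ASCL2 line cells the log2 fold change of ASNS was -0.61. Its second library there exceeded the first by 0.73 with doxycycline and 0.51 without. PYCR1, the last enzyme of proline synthesis, and PCK2, the mitochondrial PEP carboxykinase, were not called in either line. PYCR1 had 5796 and 6558 in doxycycline-treated and 5378 and 5240 in untreated cells of the ASCL2 line, where the groups did not overlap.

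Among 6 amino acid transporters, 1 rose and 1 fell in each line. Of all genes tested, doxycycline gave calls for 26.6% in ASCL2 line cells and 18.6% in cells of the other line. SLC7A11, the light chain of the cystine and glutamate exchanger, rose in both lines. It had 7310 and 8764 in doxycycline-treated and 4662 and 5906 in untreated cells of the ASCL2 line, a 1.53-fold rise (log2 0.61 ± 0.111 SE, n = 2 each; limma with Benjamini-Hochberg adjusted p = 0.000902). SLC7A11 had 2057 and 2296 in doxycycline-treated and 1274 and 1389 in untreated cells of the WiNTRLINC1 line, a 1.63-fold rise (log2 0.71 ± 0.111 SE, adjusted p = 0.000376). The 2 rises of SLC7A11 differed by 0.10 (95% interval -0.24 to 0.43), and both treated libraries were above both untreated ones in each line. SLC7A5, the light chain of the leucine exchanger LAT1, fell in both. It had 11515 and 14132 in doxycycline-treated and 22064 and 26460 in untreated cells of the ASCL2 line, a 1.89-fold fall (log2 -0.92 ± 0.102 SE, limma with Benjamini-Hochberg adjusted p = 1.11e-05). SLC7A5 had 29911 and 28919 in doxycycline-treated and 38875 and 35821 in untreated cells of the WiNTRLINC1 line (log2 -0.34 ± 0.102 SE, adjusted p = 0.0283). This smaller fall was lost without any 1 of the 4 libraries of that line (adjusted p between 0.0579 and 0.184) and after quantile normalization (adjusted p = 0.245).

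The 2 light chains thus went opposite ways, while SLC3A2, the heavy chain that both share, was not called. SLC3A2 had 11420 and 13604 in doxycycline-treated and 11936 and 12915 in untreated cells of the ASCL2 line, a log2 fold change of 0.01 (95% interval -0.17 to 0.18). SLC3A2 had 14947 and 14545 in doxycycline-treated and 16541 and 15942 in untreated cells of the WiNTRLINC1 line. The neutral amino acid carriers SLC1A4, SLC1A5 and SLC38A2 were not called in either line. Their groups overlapped in both lines except for SLC1A5 in the WiNTRLINC1 line, which had 6800 and 7055 in doxycycline-treated and 6216 and 5947 in untreated cells.

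The difference between the 2 responses was tested for each gene, and 6 of the 27 ATF4 target and supply genes passed, 3 in each direction, beside 15.0% of all genes, of which 7.39% were positive and 7.6% negative. PHGDH, SLC7A5 and NUPR1 were lower in the ASCL2 line response than in the WiNTRLINC1 line response, with differences of 2.02, 0.58 and 0.58. MTHFD2, PSPH and CTH had differences of -0.97, -0.76 and -0.69. Of these, NUPR1 was the least firm, at an adjusted p = 0.041 (limma, Benjamini-Hochberg), and was lost without any 1 of 6 libraries (adjusted p between 0.0596 and 0.198). SLC7A5 was lost without any 1 of 4 libraries. Without the filter on low values NUPR1, SLC7A5 and MTHFD2 were all lost. When the variance was not allowed to follow the mean, these genes and CTH were lost.

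The 11 cytosolic tRNA synthetases were described apart. In the ASCL2 line 4 of 11 fell and 0 rose, beside 26.6% of all genes called, of which 12.7% of all genes fell. In the WiNTRLINC1 line 2 of 11 rose and 0 fell, beside 18.6% of all genes called, of which 9.54% rose. Their median log2 fold change was -0.05 in the ASCL2 line, with single values from -0.43 to 0.21. It was 0.11 in the WiNTRLINC1 line, with single values from -0.19 to 0.36. LARS1, for leucine, had 1235 and 1248 in doxycycline-treated and 1626 and 1732 in untreated cells of the ASCL2 line (log2 -0.43 ± 0.084 SE, n = 2 each; limma with Benjamini-Hochberg adjusted p = 0.00139). TARS1, for threonine, had 2869 and 3429 in doxycycline-treated and 3806 and 4299 in untreated cells (log2 -0.37 ± 0.091 SE, adjusted p = 0.0077). Neither gene had a treated library as high as an untreated one. SARS1, for serine, had 2772 and 3499 in doxycycline-treated and 3763 and 3858 in untreated cells (log2 -0.29 ± 0.0931 SE, adjusted p = 0.0314). AARS1, for alanine and with the composite motif printed above, had 7364 and 8565 in doxycycline-treated and 9511 and 9395 in untreated cells (log2 -0.25 ± 0.0784 SE, adjusted p = 0.0275). In all 4 of these genes both treated libraries lay below both untreated ones.

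The calls of 3 of the 4 were lost when single libraries of the ASCL2 line were left out, while LARS1 was called in each such fit. Without the first doxycycline library the log2 fold change was -0.14 for AARS1, -0.12 for SARS1 and -0.24 for TARS1 (limma, Benjamini-Hochberg adjusted p between 0.12 and 0.377). In that fit GARS1, MARS1, YARS1 and CARS1 were called as higher, with log2 fold changes of 0.33, 0.35, 0.35 and 0.29. Without the second untreated library the falls were -0.26 for AARS1, -0.27 for SARS1 and -0.28 for TARS1, with adjusted p between 0.0856 and 0.131. Without the first untreated library AARS1 was at -0.24 and SARS1 at -0.31, with adjusted p of 0.108 and 0.0878. With doxycycline, all 11 synthetases of this line were higher in the second library than in the first, by a median of 0.26.

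In the WiNTRLINC1 line SARS1 rose, with 5059 and 5326 in doxycycline-treated and 4118 and 3973 in untreated cells (log2 0.36 ± 0.0931 SE, n = 2 each; limma with Benjamini-Hochberg adjusted p = 0.0137). CARS1, for cysteine, had 4487 and 4516 in doxycycline-treated and 3648 and 3674 in untreated cells (log2 0.30 ± 0.0986 SE, adjusted p = 0.048). Each of these calls was lost without any 1 of the 4 libraries of the line, with adjusted p between 0.0505 and 0.116 for SARS1 and between 0.147 and 0.186 for CARS1. SARS1 was the 1 of 11 synthetases that passed the test of the difference between the lines, at 0.65 ± 0.132 SE (limma, Benjamini-Hochberg adjusted p = 0.00342). This call was lost without the filter on low values and when the variance was not allowed to follow the mean. TARS1 passed the test of the difference after quantile normalization, with either replicate block and without the second ASCL2 doxycycline library. Not called in either line were GARS1, WARS1, NARS1, EPRS1, MARS1 and YARS1, for glycine, tryptophan, asparagine, glutamate with proline, methionine and tyrosine.

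**Figure D4:**
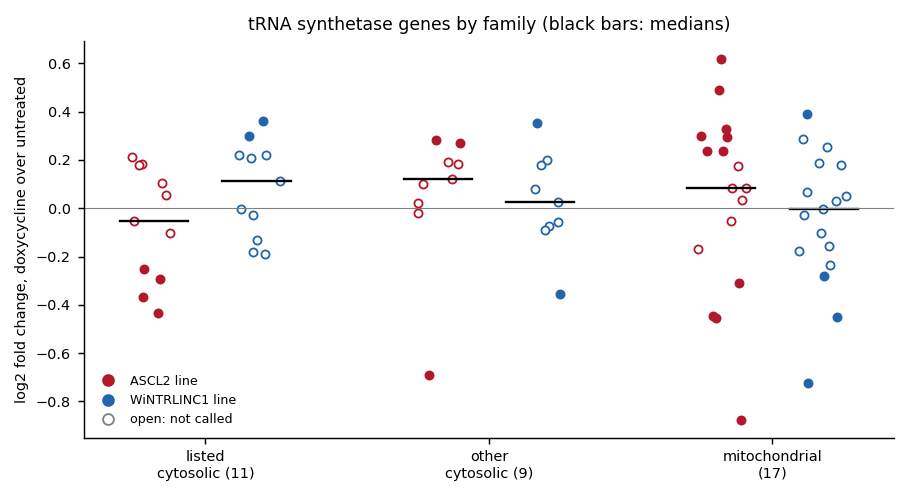
Log2 fold change with doxycycline over untreated, on the log2(value + 1) scale, for the 11 listed cytosolic, 9 other cytosolic and 17 mitochondrial tRNA synthetases in the ASCL2 line (red) and the WiNTRLINC1 line (blue). Each point is a gene estimated from 2 libraries per group, filled points passed the test and black bars are medians. FARSB at -0.69 and AARS2 at -0.88 are the lowest points of the ASCL2 line, both outside the listed synthetases.

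Related genes were counted from lists of the same pathway, beside 13.9% of all genes higher and 12.7% lower in the ASCL2 line and 9.54% higher and 9.03% lower in the WiNTRLINC1 line. Of 9 other cytosolic synthetases, 2 rose and 1 fell in the ASCL2 line, while the WiNTRLINC1 line had 1 of each. FARSB, a subunit of the phenylalanine enzyme, had 927 and 925 in doxycycline-treated and 1494 and 1497 in untreated cells of the ASCL2 line, a log2 fold change of -0.69, while its partner subunit FARSA was not called. IARS1 and HARS1, for isoleucine and histidine, rose there by 0.28 and 0.27. In the WiNTRLINC1 line VARS1, for valine, rose by 0.36. Of 3 scaffold proteins of the multisynthetase complex, EEF1E1 and AIMP2 rose in the ASCL2 line (0.48 and 0.26) and AIMP1 fell by 0.32. In the WiNTRLINC1 line 0 of 3 were called. There 1 of 3 had an unadjusted limma p under 0.05, beside 6634 of all 22100 genes. Of 17 mitochondrial synthetases, 7 rose and 4 fell in the ASCL2 line (26.6% of all genes called), led by AARS2 at -0.88, EARS2 at 0.62 and VARS2 at -0.45. The WiNTRLINC1 line had 1 that rose and 3 that fell (18.6% of all genes called). AARS2 fell by 0.45 and EARS2 rose by 0.39 there. In both lines the other cytosolic and the mitochondrial synthetases each held members that rose and members that fell.

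Upstream of ATF4, 3 of 15 genes of the eIF2 pathway rose and 4 fell in the ASCL2 line, beside 13.9% of all genes higher and 12.7% lower. EIF2AK3, the kinase PERK of the endoplasmic reticulum, had 914 and 821 in doxycycline-treated and 543 and 567 in untreated cells (log2 0.64, limma with Benjamini-Hochberg adjusted p = 0.000613). EIF2AK4, the kinase GCN2 that senses uncharged tRNA, fell by 0.49, and EIF2AK1, the haem-regulated kinase, fell by 0.35. The WiNTRLINC1 line had 2 of 15 that rose and 2 that fell, beside 9.54% of all genes higher and 9.03% lower. EIF2AK3 fell there, with 343 and 387 in doxycycline-treated and 473 and 540 in untreated cells (log2 -0.47), and its responses differed by -1.11 (limma, Benjamini-Hochberg adjusted p = 0.000195). EIF2S3, the gamma subunit of eIF2, fell by 0.43, and EIF2B5, a subunit of its exchange factor, rose by 0.26. These are messenger RNA levels, and phosphorylation was not measured.

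Of 22 other genes linked to ATF4, 7 rose and 3 fell in the ASCL2 line (all genes: 13.9% higher, 12.7% lower). SQSTM1, the autophagy receptor p62, had 52372 and 53188 in doxycycline-treated and 27923 and 28182 in untreated cells, a log2 fold change of 0.91 (limma, Benjamini-Hochberg adjusted p = 4.94e-07). GPT2, the mitochondrial alanine transaminase, had 972 and 1292 in doxycycline-treated and 2087 and 2258 in untreated cells (log2 -0.95), and HERPUD1, a protein of endoplasmic reticulum quality control, fell by 0.60. The counts were 4 higher and 3 lower in the WiNTRLINC1 line, where 9.54% of all genes were higher and 9.03% lower. ATF5, a transcription factor related to ATF4, had 496 and 405 in doxycycline-treated and 1423 and 1339 in untreated cells, a log2 fold change of -1.62 (limma, Benjamini-Hochberg adjusted p = 7.29e-08) and thus a larger change than that of any listed gene in this line. ADM2, a secreted peptide, had 314 and 260 in doxycycline-treated and 127 and 132 in untreated cells (log2 1.14), and the amino acid transporter SLC43A1 rose by 0.52. The SQSTM1 responses differed by -1.03 and those of ATF5 by -1.12.

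The untreated lines differed in more of the listed genes than either treatment changed. Untreated WiNTRLINC1 cells were set over untreated ASCL2 cells: 7 of 27 ATF4 target and supply genes were higher and 11 lower, with a median of -0.22, beside 55.2% of all genes called (25.7% higher, 29.5% lower) and a median of -0.04 for all genes. The lines did not overlap for 21 of the 27, against 75.7% of all genes. VLDLR, the very low density lipoprotein receptor, had 2 and 6 in untreated WiNTRLINC1 cells and 206 and 155 in untreated ASCL2 cells, a log2 difference of -5.29 that the added 1 understates. It was also low in doxycycline-treated WiNTRLINC1 cells, at 5 and 2. VLDLR passed the filter on low values only through the ASCL2 line, where it was high. Its place among the 11 lower genes is thus a description and adds no support. CTH had 447 and 503 in untreated WiNTRLINC1 cells and 2478 and 2328 in untreated ASCL2 cells (log2 -2.34 ± 0.0909 SE, n = 2 each; limma with Benjamini-Hochberg adjusted p = 3.8e-11). SLC7A11 had 1274 and 1389 in untreated WiNTRLINC1 cells and 4662 and 5906 in untreated ASCL2 cells (log2 -1.98). The enzyme that makes cysteine and the carrier that imports cystine were thus both lower in the WiNTRLINC1 line. CEBPB was lower by a log2 difference of -1.56, NUPR1 by -1.29, DDIT4 by -0.97, SLC38A2 by -0.83 and SESN2 by -0.77. The call of DDIT4 was lost without the second untreated ASCL2 library (-0.45) or the first untreated WiNTRLINC1 library (-0.92), with limma and Benjamini-Hochberg adjusted p of 0.224 and 0.0703. TRIB3, PCK2 and SLC1A4, the other 3 that were lower, each lost their call without at least 2 of the untreated libraries, taken 1 at a time.

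Higher in untreated WiNTRLINC1 cells were ASNS at 0.82, ATF4 at 0.71, SLC7A5 at 0.63, PSAT1 at 0.56, MTHFD2 at 0.49, SLC3A2 at 0.39 and SHMT2 at 0.32. The calls of ASNS, ATF4, PSAT1 and MTHFD2 were lost when the variance was not allowed to follow the mean. Those of ASNS and MTHFD2 were also lost without the filter on low values. MTHFD2 was no longer called without the first untreated ASCL2 library, at 0.30 (limma, Benjamini-Hochberg adjusted p = 0.0525). ATF4 had 15852 and 18847 in untreated WiNTRLINC1 cells and 9302 and 12085 in untreated ASCL2 cells (± 0.151 SE, limma with Benjamini-Hochberg adjusted p = 0.00108). CHAC1 was not called, at a log2 difference of -1.01 with a 95% interval from -2.0 to -0.01 (adjusted p = 0.0793). PSPH had 877 and 934 in untreated WiNTRLINC1 cells and 899 and 914 in untreated ASCL2 cells (95% interval of the difference -0.22 to 0.21). Of the 11 synthetases, 7 were higher and 0 lower, with a median of 0.48, beside 25.7% of all genes higher. They ran from AARS1 at 0.42 to EPRS1 at 0.68, with NARS1 at 0.67, LARS1 at 0.66 and CARS1 at 0.62. SARS1 had 4118 and 3973 in untreated WiNTRLINC1 cells and 3763 and 3858 in untreated ASCL2 cells and was not called (0.09, 95% interval -0.11 to 0.29). Of the 9 other cytosolic synthetases 5 were higher and 0 lower.

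**Figure D5:**
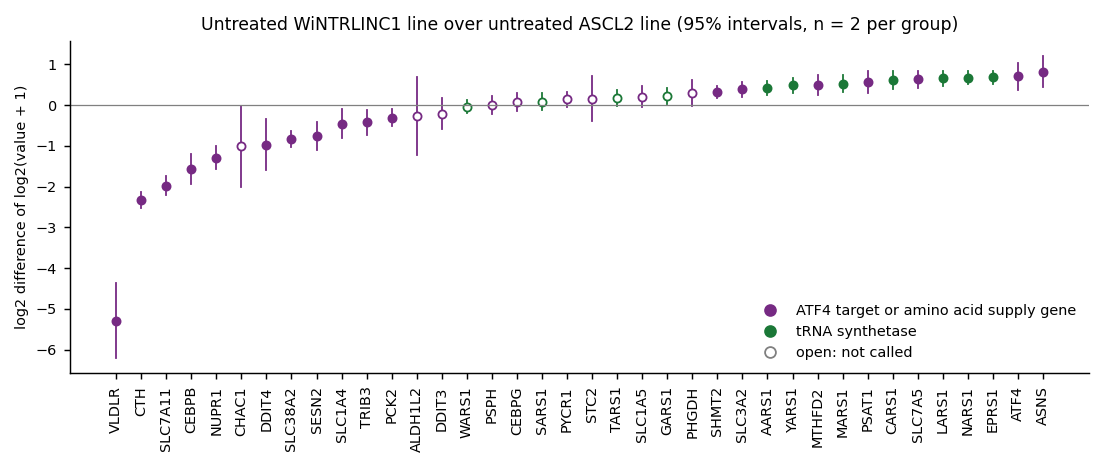
Log2 difference of the untreated WiNTRLINC1 line over the untreated ASCL2 line for each of the 38 listed genes, on the log2(value + 1) scale, in order of size. Points are estimates from 2 libraries per group, lines are 95% intervals and filled points passed the test. Synthetases (green) sit between -0.04 and 0.68, and VLDLR is the lowest at -5.29.

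To compare levels between genes, values were divided by exon length and scaled to a common sum per library, as an estimate. In untreated cells SLC7A5 was the highest listed gene, at 1068 in the WiNTRLINC1 line and 675 in the ASCL2 line, followed by ATF4 at 938 in the WiNTRLINC1 line and 562 in the ASCL2 line. SLC7A5 fell to 830 in doxycycline-treated WiNTRLINC1 cells and to 333 in doxycycline-treated ASCL2 cells, below ATF4 at 962 in those WiNTRLINC1 cells and 533 in those ASCL2 cells. Among synthetases NARS1 and AARS1 were highest, at 414 and 381 in untreated WiNTRLINC1 cells and 251 and 276 in untreated ASCL2 cells. LARS1 was the lowest synthetase, at 44.4 in untreated WiNTRLINC1 and 27.2 in untreated ASCL2 cells. VLDLR in the WiNTRLINC1 line and ALDH1L2 in both lines were under 1.

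Some values could be shared with other genes. The pseudogene ATF4P3 had values equal to 14.8% of ATF4 in untreated WiNTRLINC1 cells and 10.8% in untreated ASCL2 cells. PSAT1P3 had 7.49% of PSAT1 in untreated WiNTRLINC1 cells and 7.89% in untreated ASCL2 cells. MTHFD2P7 had 11% of MTHFD2 in untreated WiNTRLINC1 cells and 9.07% in untreated ASCL2 cells. Reads of these 3 genes may be split with their copies. DDIT3 and MARS1 lie on opposite strands and share 355 exon bases in the GENCODE annotation. Other listed genes overlap a neighbour too. ASNS shares 1985 exon bases with AC079781.5 on the same strand. On opposite strands, MTHFD2 shares 1324 with SLC4A5, which was between 5 and 18. ALDH1L2 shares 145 with C12orf45, which was between 375 and 1260. Whether counting used the strand is not given in the sources used here, so values of overlapping genes are uncertain.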

How the data were processed

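The submitters' processing notes name cutadapt, TopHat2 2.0.9, Cufflinks and DESeq, and the builds hg19, GRCh37 and mm9, with no role for any build. Each deposited value is a score: a count that the authors scaled per library and rounded, judged from the values, since some low whole numbers are held by 0 genes in a library. Identifiers were matched to symbols with reference tables. The count test foreseen in the design was not applicable to scaled values, so limma 3.58.1 in R 4.3.3 was run on log2(value + 1) over all 8 libraries in 4 groups, with the prior variance following the mean, for 22100 genes with at least 10 in at least 2 libraries. It had 4 residual and 10.5 prior degrees of freedom. Calls used a Benjamini-Hochberg adjusted p under 0.05 over all genes, and the fit was tested on simulated data. The added 1 understates changes of low genes. Depth limits low genes, and the raw depth is not in the values. All listed genes were followed in every comparison, with library values for those called with doxycycline and for ATF4 and DDIT3, and up to 3 genes per related list by smallest adjusted p. The listed genes and the related lists were chosen with earlier results of these data known. Alternatives were other pseudocounts, filters, scalings, no trend, separate fits, replicate blocks and leaving out each library. Exon lengths, overlaps and chromosomes came from GENCODE 29, and promoter sequences from RefSeq. Python 3.11.15 was used for tables. Values of some single genes of the related lists are not reported here.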

Additional observations from a re-analysis of the deposited data

Results flagged for a closer look

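The responses to doxycycline differed between the lines in 7 of the 38 listed genes, beside 15.0% of all 22100 genes. Differences are given as WiNTRLINC1 line minus ASCL2 line on the log2(value + 1) scale. They were tested with limma and Benjamini-Hochberg adjustment over all genes. The difference was 2.02 for PHGDH, 0.65 for SARS1, 0.58 for NUPR1 and 0.58 for SLC7A5. It was -0.97 for MTHFD2, -0.76 for PSPH and -0.69 for CTH. PHGDH was called in the ASCL2 line alone by the test over all 8 libraries, MTHFD2 and SARS1 were called in opposite directions, and NUPR1, SLC7A5 and PSPH were called in the same direction with unequal size. The groups hold 2 libraries each, so no library was tested for standing apart from its group.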

How the results depend on the processing

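With 2 libraries per group, calls near the threshold move with single libraries, and the raw depth is unknown. Over 18 alternative settings, called listed genes changed sign in 0 cases and those not called in 104. Many of these settings could not reverse the response of a line. Filters, the trend, replicate blocks, separate fits and leaving out libraries of the other line do not alter its fold change. Without the filter on low values, 2395 genes were called in the WiNTRLINC1 line and 1914 for the difference of responses. Listed ATF4 target and supply genes then numbered 2 in the WiNTRLINC1 line and 3 for the difference, and synthetases 1 in the ASCL2 line, 0 in the WiNTRLINC1 line and 0 for the difference. Without the mean-variance trend, 3410 genes were called in the ASCL2 line, 1873 in the WiNTRLINC1 line and 1313 for the difference. ATF4 target and supply genes called were then 5 in the ASCL2 line, 1 in the WiNTRLINC1 line, 2 for the difference and 10 between untreated lines, and synthetases were 1 in the ASCL2 line, 0 in the WiNTRLINC1 line and 0 for the difference. Synthetases called were 1 in the WiNTRLINC1 line with a pseudocount of 0.5, 1 there and 2 for the difference with quantile normalization, and 2 in the ASCL2 line with each line fitted alone.

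Leaving out 1 library at a time, genes called ranged from 3665 to 5862 in the ASCL2 line and from 2398 to 4131 in the WiNTRLINC1 line. ATF4 target and supply genes called ranged from 3 to 9 in the WiNTRLINC1 line, with 3 or 4 without any 1 of its own libraries. Synthetases called ranged from 1 to 5 in the ASCL2 line, 0 to 3 in the WiNTRLINC1 line and 1 to 2 for the difference. A lone library was assumed to vary like the other groups.

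Deviations of libraries, second minus first, were correlated between the treated and untreated groups of a line. Across 22100 genes the correlation was -0.0521 for the ASCL2 line and 0.105 for the WiNTRLINC1 line. Over the 8438 genes with a mean of at least 500 it was -0.193 for the ASCL2 line and 0.445 for the WiNTRLINC1 line. Same-numbered libraries of the WiNTRLINC1 line thus deviated in part together in those genes. The main test did not pair libraries. The listed stress genes of the ASCL2 line deviated alike, with second minus first library at 1.87 with doxycycline and 1.54 without for CHAC1, and at 1.08 with doxycycline and 1.05 without for DDIT4. With a replicate block, 2 synthetases passed for the difference, while ATF4 target and supply genes that passed were 9 in the WiNTRLINC1 line and 10 in the ASCL2 line. A replicate block within each line, added after the data were seen, gave 15 ATF4 target and supply genes in the ASCL2 line and 10 for the difference, and 2 synthetases for the difference. In the ASCL2 line it added DDIT3, CEBPB, SESN2 and PYCR1 as higher and DDIT4 and ASNS as lower. Numbers of all genes called with either block are not reported here, so these counts show nothing particular to the listed genes.

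Of 98 values not called, 49 changed sign in at least 1 setting, and 0 of these passed the test with the other sign. Those of genes described with values were as follows. With quantile normalization the log2 fold change in the ASCL2 line was -0.026 for ATF4, -0.052 for PSAT1, -0.016 for SHMT2 and -0.044 for PCK2, and the difference of untreated lines for PSPH was 0.068, or 0.041 with median-of-ratios scaling. That scaling gave 0.0083 for SESN2 and 0.00038 for PCK2 in the WiNTRLINC1 line. Leaving out 1 library gave, in the ASCL2 line, -0.26 to 0.29 for ATF4, -0.028 to 0.58 for CEBPB, -0.60 to 1.27 for CHAC1, -0.95 to 0.13 for DDIT4, -0.51 to 0.45 for STC2, -0.20 to 0.24 for PSAT1, -0.055 to 0.070 for SHMT2, -0.61 to 0.11 for ASNS, -0.15 to 0.20 for PCK2, -0.12 to 0.13 for SLC3A2 and -0.083 to 0.29 for CARS1. In the WiNTRLINC1 line it gave -0.061 to 0.19 for ATF4, -0.094 to 0.051 for DDIT3, -0.037 to 0.024 for SESN2 and -0.046 to 0.018 for PCK2. There it gave -0.72 to 0.50 for VLDLR, whose values of 6 or less in that line are too low for a statement. For the difference of responses it gave -0.17 to 0.10 for CEBPG and -0.072 to 0.27 for SLC7A11, and between untreated lines -0.048 to 0.043 for PSPH.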
